A study of Mus musculus with 4 samples.

Results

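Cxcl9 expressing macrophages and monocytes were followed across 4 single-cell RNA libraries of immune cells from neonatal mouse hearts. A cell was counted as a member when it held at least 2 UMIs of Cxcl9 and at least 3 UMIs of Csf1r, Lyz2 and Fcgr1 together, genes that mark the macrophage and monocyte lineage. UMIs, or unique molecular identifiers, stand for counted RNA molecules. Members could hold at most 1 UMI of the dendritic cell genes Xcr1, Clec9a and Cd209a, and at most 2 UMIs of the lymphocyte genes Cd3d, Cd3e, Cd3g, Cd79a and Cd79b. Of 23961 cells that passed the quality limits, 12908 met every condition but the one on Cxcl9 and are called gated cells here. The members were 98 of these. Cells with at least 30 UMIs of C1qa, C1qb and C1qc per 10000 UMIs, 79 members, are called C1q high, and the other 19 members C1q low. C1q is a complement protein that mature macrophages make and fresh monocytes do not.

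The C57BL/6 mice were heterozygous (Het) or homozygous (KO) for loss of PD1, which restrains activated T cells, so that no group was wild type. Pups were operated on at postnatal day 2, with either sham surgery or an infarction of the heart muscle (MI), and live CD45-positive cells were sorted from the hearts, with the atria removed, 7 days later. Het_sham, KO_sham, Het_MI and KO_MI are each 1 library, and the labels used here do not give the number or sex of the animals behind each. No difference between these groups therefore has a replicate check, and all intervals in square brackets are 95% intervals for counting error only.

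Cxcl9 encodes a chemokine that draws T cells and NK cells carrying the receptor Cxcr3. Macrophages make it when interferon gamma from such lymphocytes binds its receptor. The same signal is known to raise the guanylate-binding proteins, which attack intracellular microbes, and the genes of antigen presentation. Type I interferons act through a related pathway on an overlapping set of genes. On GRCm38, Cxcl9 (ENSMUSG00000029417) spans 92321347 to 92328079 of chromosome 5 (minus strand) in 4 exons, and the tags of this 3' assay fall towards its 3' untranslated region at 92321347 to 92323801.

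The libraries held 6157 to 8379 barcodes and 52701847 to 72002420 UMIs, with a median of 6559 to 8632 UMIs per cell past the quality limits. Between 4 and 13 barcodes were shared by any pair of libraries, and no member carried a shared barcode. RNA of Pdcd1, which encodes PD1, was counted in 5.38% and 7.51% of cells with at least 3 Cd3 UMIs in Het_sham and Het_MI, and in 6.91% and 13.8% in KO_sham and KO_MI. How the gene was inactivated is not given in the labels, so these 3' tags check nothing about the genotype. The libraries differed in sex-linked RNA. In KO_MI 90.6% of gated cells held Xist RNA and no RNA of 4 Y-linked genes, and 1 cell held Y-linked RNA, whereas Y-linked RNA was found in 40.8%, 47.9% and 60.0% of gated cells in Het_sham, KO_sham and Het_MI.

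Nearly all members came from the infarcted KO heart. There were 2 members in Het_sham, 6 in KO_sham, 7 in Het_MI and 83 in KO_MI. They made up 0.0754% [0.00914 to 0.272], 0.165% [0.0607 to 0.359], 0.259% [0.104 to 0.533] and 2.11% [1.69 to 2.61] of gated cells in that order. The share in KO_MI lay above the other 3, whose intervals overlap one another. It was 8.16-fold [3.79 to 20.9] that in Het_MI and 12.8-fold [5.63 to 35.9] that in KO_sham. The ratio of KO_sham over Het_sham was 2.19 [0.392 to 22.2] and that of Het_MI over Het_sham was 3.44 [0.654 to 33.9], and both intervals include 1. These shares are counts of cells in single libraries, and the members were chosen by the same Cxcl9 counts.

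Members were more frequent in KO_MI than in KO_sham in both C1q classes, and more frequent in KO_MI than in Het_MI among C1q high cells. C1q high members numbered 2, 4, 3 and 70 in Het_sham, KO_sham, Het_MI and KO_MI. Their share of C1q high gated cells was 2.53% [1.98 to 3.19] in KO_MI and 0.149% [0.0307 to 0.434] in Het_MI, a 17.0-fold ratio [5.60 to 84.6]. C1q low members numbered 0, 2, 4 and 13, and 0 of 1290 cells in Het_sham gave a share of 0% [0 to 0.286]. The C1q low share was 0.587% in Het_MI and 1.12% in KO_MI, and their ratio was 1.91 [0.589 to 8.03], an interval that includes 1. Against KO_sham, with 0.160%, the C1q low ratio of KO_MI was 7.01 [1.59 to 64.0], and the C1q high ratio was 15.1 [5.62 to 56.8]. The difference between these ratios was not tested. Division by C1q class was chosen as an alternative after the data had been seen.

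The sex of the cells could not be separated from the group. Among cells with Xist and no Y-linked RNA, 75 of 3557 were members in KO_MI (2.11% [1.66 to 2.64]) and 0 of 434 in Het_MI (0% [0 to 0.846]). With 3 cells of 434 (0.691%) taken for the 0 of Het_MI, the KO_MI share was 3.05-fold that value, a ratio without an interval. In KO_sham 1 of 933 such cells was a member and in Het_sham 1 of 524. Among cells with Y-linked RNA, 5 of 1621 were members in Het_MI (0.308%) and 3 of 1737 in KO_sham, while KO_MI had only 1 cell of this kind. Genotype, surgery and the sex of the animals in KO_MI cannot be told apart.

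Depth also differed, and the order of the MI libraries was the same at equal depth. Members of KO_MI had a median of 9945 UMIs, against 7472 in all its gated cells. When each gated cell was thinned to 2000 UMIs, which kept 2424, 3494, 2622 and 3741 cells of the 4 libraries, at least 1 Cxcl9 UMI remained in 0.0413%, 0.200%, 0.305% and 2.22% of cells. The KO_MI value was then 7.27-fold that of Het_MI. Cxcl9 was also counted in other cell types. Among B cells, taken as a type that should lack Cxcl9, 0 of 813, 0 of 995, 0 of 698 and 6 of 634 cells (0.946%) held a Cxcl9 UMI at median depths of 3144 to 4152 UMIs, and none held 2. Among T and NK cells of KO_MI 2 of 427 held a Cxcl9 UMI (0.468%, median 5362 UMIs), of which 1 held at least 2. In KO_MI 3.31% of gated cells held at least 1 Cxcl9 UMI, at a median depth of 7472 UMIs. These cell types differ in depth, and the part of free RNA in the droplets was not tested.

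Cxcl9 itself varied widely from cell to cell. Both Het_sham members held 2 UMIs. The 6 KO_sham members held 2, 3, 3, 4, 10 and 10 UMIs, and the 7 Het_MI members 2, 3, 6, 6, 30, 101 and 125. The 83 KO_MI members ranged from 2 to 269 UMIs with a median of 13. The MI libraries thus held cells above the highest sham cell, and the low ends of all 4 libraries overlapped. These values chose the members and are given as a description. Just inside the threshold, 15 members held exactly 2 UMIs, and just outside it 2, 9, 5 and 47 gated cells of the 4 libraries held exactly 1. Counted at 1 UMI or more, the ratio of KO_MI over Het_MI was 7.45, and at 3 or more it was 8.26. The most strongly expressing cell gave 9.58% of the 2809 Cxcl9 UMIs of gated cells in KO_MI, and 45.0% of the 278 in Het_MI. The plot of Cxcl9 by cell and of the member shares shows both patterns.

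**Figure D1:**
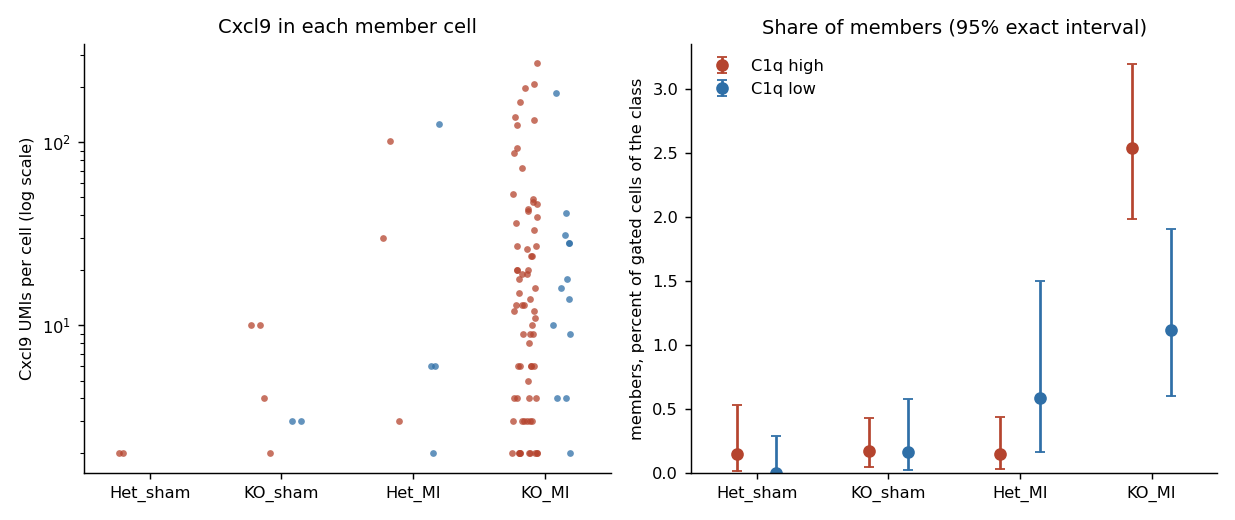
Left, Cxcl9 UMIs in each member cell on a log scale, by library and C1q class. Right, members as a percent of the gated cells of their C1q class with exact 95% intervals for counting error. The KO_MI point of C1q high cells, 2.53%, lies above those of the other libraries, at 0.147% to 0.168%, while the C1q low intervals of Het_MI and KO_MI overlap.

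The members held RNA of macrophages and monocytes in amounts that differed between libraries. To see what else they expressed, the UMIs of members were summed in each library and set against those of 5 gated cells per member with no Cxcl9 UMI, of the same library, C1q class and depth (matched cells). Levels are in CPM (counts per 1000000 UMIs summed over the cells) and are compared between groups of cells, not between genes. In KO_MI the macrophage marker Adgre1 stood at 349 CPM in members and 361 in matched cells. The lysosomal protein Cd68 stood at 497 and 544. In Het_MI and KO_sham the members held less macrophage RNA than their matched cells, with 153 against 276 CPM of Adgre1 in Het_MI. The 10 genes of a macrophage marker list summed to 5288 against 15170 CPM in Het_MI, 6777 against 11220 in KO_sham and 19440 against 22390 in KO_MI. Of these 10 genes 0 passed the test described next, all 10 log2 fold changes were below 0 and their median was −0.60. C1q low members of KO_MI held 735 CPM of Ly6c2, a surface protein of classical monocytes, against 75.5 in C1q high members. The member sum of KO_sham was mixed. It was led by 1 C1q low cell with 85060 UMIs, or 56.9% of the sum, which held 3 Cxcl9 UMIs and 35 UMIs of 5 further dendritic cell genes. That sum had 20680 CPM over 7 endothelial genes, against 3936 in its matched cells. The C1q low members of KO_sham, this cell among them, held 33820 CPM of the endothelial genes and 766 CPM of the macrophage list. Their matched cells held 9046 and 5310 CPM. Without this cell the members of KO_sham held 46.6 CPM of the endothelial genes and 15490 CPM of the macrophage list, against 52.8 and 14980 in the matched cells of the others. It held little RNA of most genes described next, so that their KO_sham levels were up to 2.32-fold higher without it, while Ly6a fell to 15.5 CPM.

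Gbp2, H2-Ab1, Serpina3g and Cfb had been named as companions of Cxcl9 with results of these data known, and none of them was used to choose the members. Gbp2, a guanylate-binding protein (chromosome 3, 142620602 to 142638008, plus strand), stood at 248, 755 and 820 CPM in the members of KO_sham, Het_MI and KO_MI. In the matched cells it stood at 3.90, 2.38 and 52.1 CPM. In KO_MI 63 of 83 members and 109 of 415 matched cells held Gbp2. H2-Ab1, the beta chain of the MHC class II molecule I-A (chromosome 17, 34257689 to 34269419, plus strand), stood at 147, 4084 and 1591 CPM against 1.95, 252 and 355. Of the 346 H2-Ab1 UMIs in Het_MI members, 128, 101 and 116 came from single cells with 2, 6 and 3 Cxcl9 UMIs. The Het_MI members with 30, 101 and 125 Cxcl9 UMIs held 1, 0 and 0. In the matched cells of Het_MI 103 of 106 H2-Ab1 UMIs came from 1 cell. Cfb, complement factor B (chromosome 17, 34856374 to 34862518, minus strand), stood at 60.2, 342 and 259 CPM against 9.76, 16.6 and 21.1. Without the largest cell, the KO_sham members held 559 CPM of Gbp2, 341.5 of H2-Ab1 and 124 of Cfb. In every one of these libraries the members lay above their matched cells in the 3 genes.

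Serpina3g, a serine protease inhibitor (chromosome 12, 104236245 to 104241939, plus strand), was counted in members of the MI libraries and in 0 members of the sham libraries. It stood at 0 CPM in both groups of cells of KO_sham, at 82.6 and 4.75 CPM in members and matched cells of Het_MI, and at 253 and 2.78 CPM in KO_MI. In Het_sham 1 of 10 matched cells held 5 UMIs of it, or 22.6 CPM over the matched cells. The sham libraries had only 2 and 6 members. In KO_MI 46 of 83 members and 8 of 415 matched cells held it. It belongs to a family of near-identical neighbours, among which the authors' counting may have split reads. It was too low in KO_sham to enter the test.

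Most members carried several of these markers at once. At least 3 of the 4 markers were found in 2 of 6 members of KO_sham, 4 of 7 of Het_MI and 47 of 83 of KO_MI (56.6%). Among matched cells the share was 0%, 0% and 3.37%. None of the 4 was found in 5 KO_MI members (6.02%), against 51.8% of matched cells. The 2 Het_sham members differed from each other, with 1 holding none of the 4 and the other holding 2, and Gbp2 (18 UMIs) came from 1 of them.

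Across the 3 libraries with at least 5 members, 38 of 5415 genes tested were higher in members than in matched cells and 0 were lower, by edgeR's quasi-likelihood test with the library as a block and a Benjamini-Hochberg adjusted p under 0.05. That is 0.702% of genes higher and 0% lower. At an unadjusted p under 0.05 there were 381 genes. DESeq2 called 55 genes higher and 4 lower. The p-values measure the spread between 3 libraries of different genotype and surgery, so a gene passes when members exceed matched cells by a like amount in all of them. All 38 were higher in members in each library. Genes that were used to choose the cells were not counted. The plot of the 25 genes with the largest changes gives each library's difference.

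**Figure D2:**
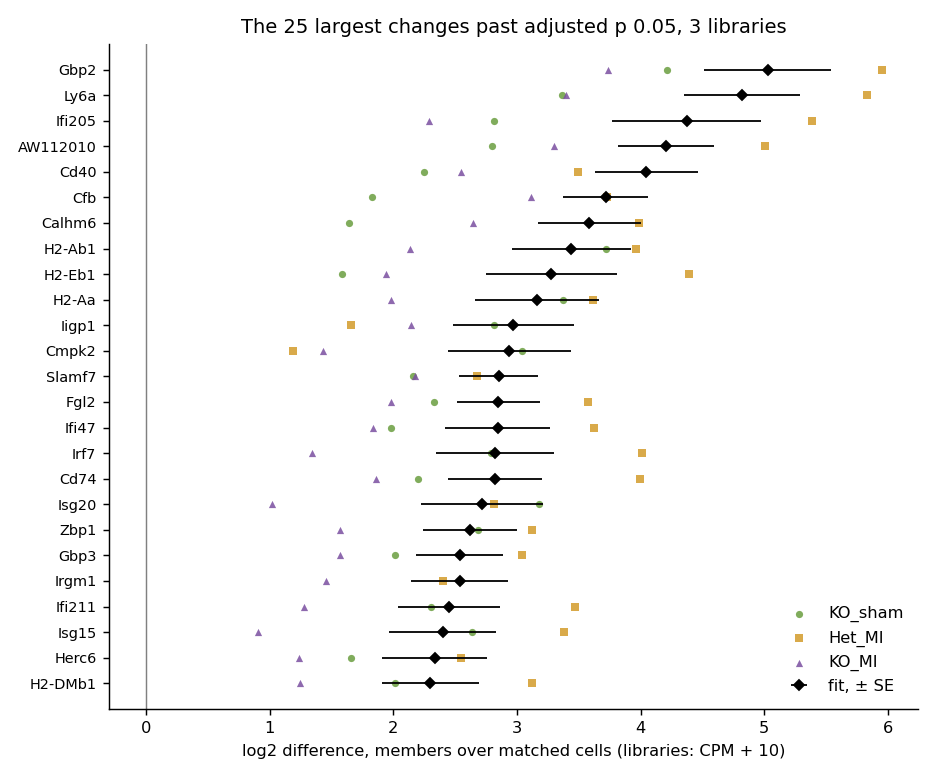
Log2 difference of members over matched cells for the 25 genes with the largest changes among those with an adjusted p under 0.05. Black diamonds with bars give the edgeR estimate and its standard error, and coloured points give each library's difference in log2(CPM + 10). All points lie to the right of 0, from H2-DMb1 at 2.30 to Gbp2 at 5.03.

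Guanylate-binding proteins and the related immunity-related GTPases made up 6 of these genes, out of 7 tested from a list of 18. Gbp2 had the largest change of all genes, with a log2 fold change of 5.03 (SE 0.514, adjusted p = 0.00218 by edgeR). Iigp1, a GTPase that acts on parasite vacuoles, rose by 2.97 on the log2 scale and stood at 60.2, 59.0 and 113 CPM in members of KO_sham, Het_MI and KO_MI against 0, 11.9 and 17.9 CPM. Ifi47 rose by 2.84, Gbp3 by 2.54, Irgm1 by 2.54 and Gbp7 by 1.79. Without KO_sham Ifi47, Gbp3, Irgm1 and Gbp7 did not pass, and with droplets of another lineage removed, or without KO_MI, Iigp1 and Gbp7 did not. The seventh, Igtp, had a log2 fold change of 1.72 and an adjusted p of 0.059 by edgeR. The median log2 fold change over the 7 was 2.54, against a median of −0.04 over all genes tested.

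All 6 tested genes of MHC class II presentation rose, with a median log2 fold change of 2.99. H2-Ab1 rose by 3.44 (SE 0.479, adjusted p = 0.0118 by edgeR), H2-Eb1 by 3.28 and H2-Aa by 3.16. Cd74, the invariant chain that escorts class II molecules, stood at 395, 9124 and 4527 CPM in members of KO_sham, Het_MI and KO_MI, against 78.1, 561 and 1238 CPM in matched cells. H2-DMb1 and H2-DMa, which load peptides onto class II molecules, rose by 2.30 and 1.99. The level itself differed widely between libraries, and H2-Eb1 in KO_sham rested on 3 UMIs. In Het_MI, single cells with 2, 6 and 3 Cxcl9 UMIs held 372, 152 and 229 Cd74 UMIs. The cells with 30, 101 and 125 Cxcl9 UMIs held 8, 9 and 3. With C1q classes divided at 50 per 10000, H2-Ab1, H2-Eb1, H2-Aa and Cd74 did not pass, and without Het_MI H2-Eb1, H2-Aa and H2-DMb1 did not.

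Of the MHC class I pathway, 6 of 18 tested genes rose, and all 18 log2 fold changes were above 0, with a median of 1.32. The immunoproteasome subunits Psmb10 and Psmb8 rose by 1.81 and 1.61, and the proteasome activators Psme2 and Psme1 by 1.38 and 1.25. The chaperone of peptide loading Tapbp rose by 1.39 and the class I gene H2-T23 by 1.78. None of these 6 passed without Het_MI or without KO_MI. The light chain B2m stood at 1345, 2845 and 3446 CPM in members against 1251, 1611 and 2134 in matched cells, with a log2 fold change of 0.62 and an adjusted p of 0.47 by edgeR. The classical class I gene H2-K1 had 1.25 and an adjusted p of 0.055.

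Of genes named for type I interferon 4 of 19 tested passed, with a median log2 fold change of 2.13 over the list. All 19 values were above 0. Cmpk2, a nucleotide kinase, rose by 2.94, the transcription factor Irf7 by 2.83, the nucleic acid sensor Zbp1 by 2.62 and the ubiquitin-like protein Isg15 by 2.40. With droplets of another lineage removed Irf7, Zbp1 and Isg15 did not pass and Cmpk2 was too low to be tested, and without KO_sham none of the 4 passed. Rsad2, an antiviral enzyme, had a log2 fold change of 3.13 and an adjusted p of 0.081 by edgeR. Of the signalling chain of interferon gamma, log2 fold changes were 0.72 for the transcription factor Irf1, −0.43 for the receptor chain Ifngr1 and −0.25 for Jak1, all with an adjusted p over 0.4 by edgeR.

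Cell surface genes that engage lymphocytes also passed. Cd40, the receptor for helper T cells, rose by 4.05 (SE 0.417, adjusted p = 0.00218 by edgeR) and stood at 46.8, 130 and 90.4 CPM against 1.95, 2.38 and 7.16 CPM. Slamf7, a receptor of the signalling lymphocyte activation family, rose by 2.85. They were 2 of 7 tested genes of a list of checkpoint and costimulatory molecules, and the ligand Cd86 was not among them, at 0.49. Cfb was 1 of 8 tested in the list of complement and serpins, and rose by 3.72. The Fc receptor gene Fcgr4 was 1 of 10 in its list and rose by 1.76. Of other genes with large changes, Ly6a (also called Sca-1) rose by 4.82 and stood at 254, 696 and 221 CPM against 15.6, 2.38 and 11.9. In KO_sham 37 of its 38 UMIs came from the largest cell, and without that cell it was too low to be tested. The DNA sensor Ifi205 rose by 4.37, AW112010 by 4.21, the ion channel homologue Calhm6 by 3.59 and the fibrinogen-like protein Fgl2 by 2.85.

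The calls depended on each library. With KO_sham left out 17 of the 38 still passed, without Het_MI 23, and without KO_MI 21 of the 36 that were tested. All of those tested stayed higher in each case. When the 7 members with at least 2 UMIs of further dendritic cell genes were left out, the 85060 UMI cell of KO_sham among them, 34 of the 38 were still tested and all 34 passed, among 67 calls in all. When that cell alone was left out, 27 of 35 tested passed, among 44 calls. When droplets with RNA of another lineage were removed, that cell included, 25 of 33 tested passed. Gbp2, Cd40, Cfb and Fgl2 passed in every one of the edgeR fits that kept the library block. The lists of classical monocyte, non-classical monocyte, macrophage, resident macrophage, lipid-associated, alternative activation, proliferation, cytokine and chemokine genes gave 0 genes past the test in either direction. The resident macrophage genes had a median log2 fold change of −0.99 over 13 tested. In that list the scavenger receptor Cd163 stood at 6.69, 11.8 and 11.9 CPM in members against 42.9, 40.4 and 50.3 CPM, with an adjusted p of 0.071 by edgeR.

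Promoters of the genes that passed were read from the RefSeq table of GRCm38.p6 for 2 motifs of interferon signalling and 1 of NF-kB. Of the 38 genes 29 were in the table. The 5 stretches printed here, each 250 bases ending at the base before the RefSeq transcription start, are those of Cxcl9, of the gene with the largest change, of Serpina3g, and of Gbp7 and Isg15, which hold several matches. Capitals mark matches of the interferon-stimulated response element (GAAA, any 2 bases, GAAA), bound by IRF factors, the gamma-activated site TTCNNNGAA of interferon gamma targets, or the NF-kB motif (GGG, any 2 bases, TTTCC), on either strand.
Cxcl9 promoter, chr5:92328080-92328329, minus strand: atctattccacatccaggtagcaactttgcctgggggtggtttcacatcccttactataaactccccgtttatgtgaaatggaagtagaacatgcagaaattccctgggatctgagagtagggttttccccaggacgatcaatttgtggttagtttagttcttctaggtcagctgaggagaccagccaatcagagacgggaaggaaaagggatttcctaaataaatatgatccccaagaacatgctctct
Gbp2 promoter, chr3:142620413-142620662, plus strand: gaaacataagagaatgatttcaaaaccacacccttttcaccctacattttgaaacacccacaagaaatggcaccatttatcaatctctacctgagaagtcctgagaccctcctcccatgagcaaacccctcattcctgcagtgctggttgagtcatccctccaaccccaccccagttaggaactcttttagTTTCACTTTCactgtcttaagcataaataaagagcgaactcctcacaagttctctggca
Serpina3g promoter, chr12:104235897-104236146, plus strand: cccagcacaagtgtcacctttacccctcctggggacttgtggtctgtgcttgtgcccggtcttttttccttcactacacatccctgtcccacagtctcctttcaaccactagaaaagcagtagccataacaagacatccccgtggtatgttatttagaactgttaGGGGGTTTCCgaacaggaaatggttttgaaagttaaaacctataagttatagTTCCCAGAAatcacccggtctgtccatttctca
Gbp7 promoter, chr3:142530086-142530335, plus strand: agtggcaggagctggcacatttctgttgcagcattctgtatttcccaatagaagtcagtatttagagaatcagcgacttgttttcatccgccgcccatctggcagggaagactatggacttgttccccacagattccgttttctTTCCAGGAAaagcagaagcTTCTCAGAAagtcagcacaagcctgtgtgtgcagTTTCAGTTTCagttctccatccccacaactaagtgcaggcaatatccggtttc
Isg15 promoter, chr4:156200819-156201068, minus strand: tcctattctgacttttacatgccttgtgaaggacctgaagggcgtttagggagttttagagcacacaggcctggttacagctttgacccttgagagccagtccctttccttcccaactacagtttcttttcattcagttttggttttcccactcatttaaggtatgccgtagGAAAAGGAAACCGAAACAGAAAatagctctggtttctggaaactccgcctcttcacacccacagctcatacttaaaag

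In Gbp2 the response element begins 59 bases before the start. Isg15 has 3 overlapping matches of it, which begin 78, 72 and 66 bases before the start. Gbp7 has 1 response element and 2 gamma-activated sites, which begin 106 and 87 bases before the start. Serpina3g has a gamma-activated site that begins 33 bases before the start and an NF-kB match that begins 85 bases before it. The stretch of Cxcl9 holds none of these exact spellings. The response element was found in 11 of the 29 genes and in 3.44% of all 32851 promoters of the table. The gamma-activated site was found in 4 of 29, against 8.30%, and the NF-kB motif in 0 of 29, against 1.63%. A gene was counted when any of its listed promoters matched, whereas the percentages are of single promoters, so the 2 are not in like units. These counts also cover a short stretch after the start that is not printed here. A match is a spelling in the searched window and does not show binding.

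Only KO_MI had at least 5 members in each C1q class, so its classes are described without a test. A gene was described where members and matched cells together held at least 30 UMIs, and called past 1.5-fold by its log2 ratio of CPM. In the 70 C1q high members 7.33% of 8757 genes were past 1.5-fold higher than in 350 matched cells and 18.8% past 1.5-fold lower, with a median log2 ratio of −0.12 over all genes. All 13 guanylate-binding and immunity-related GTPase genes were past 1.5-fold higher, with a median of 2.01, from Gbp9 at 1.26 to Gbp2 at 3.74 [3.52 to 3.96]. All 7 MHC class II genes were, with a median of 1.95, led by their master regulator Ciita at 2.87 [1.86 to 3.92] on 22 and 15 UMIs. Of the class I pathway 16 of 18 were past 1.5-fold higher, and of the type I interferon list 12 of 22, with medians of 0.98 and 0.76. Isg15 and Ifitm3 gave 0.45 and 0.39, below that fold. The plot of the gene lists in KO_MI shows each gene.

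**Figure D3:**
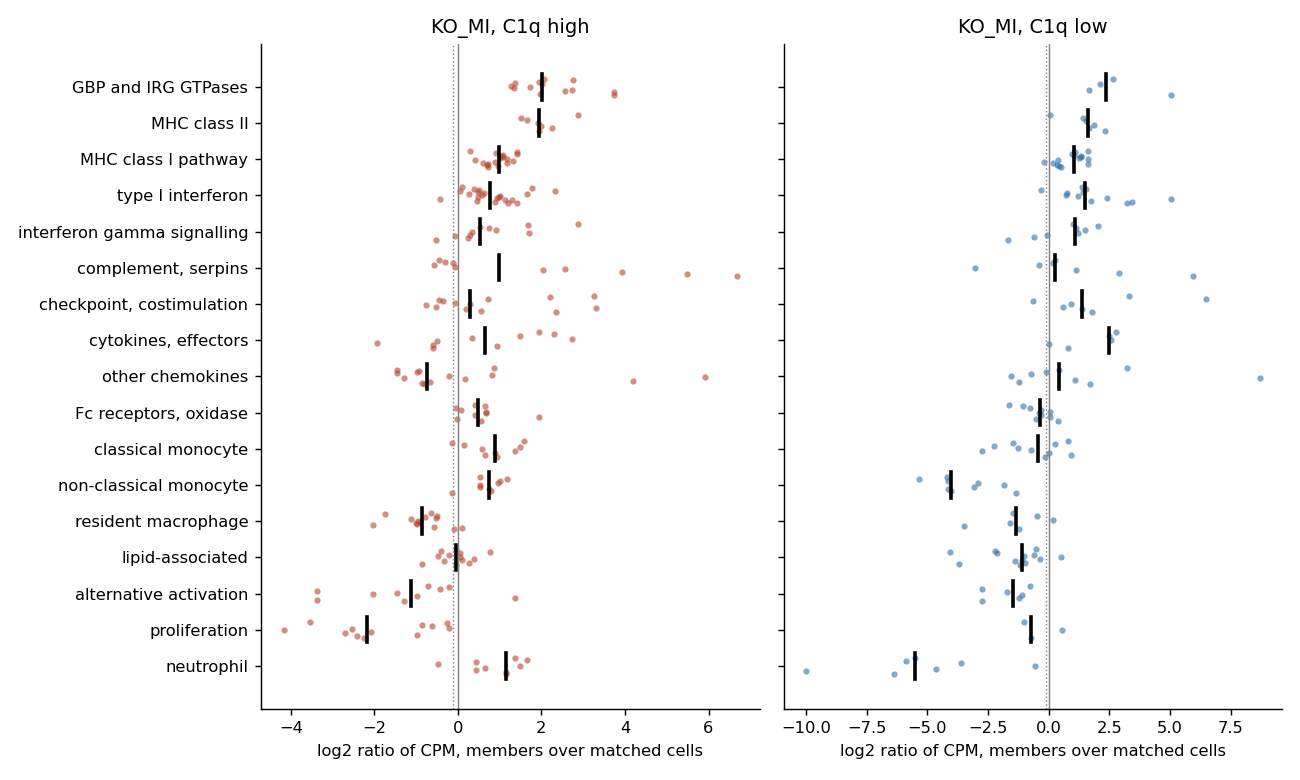
Log2 ratio of CPM of members over matched cells for genes of each list in KO_MI, C1q high at left and C1q low at right. Points are genes, black bars list medians, and the dotted line is the median of all genes described. The GTPase, MHC class II and class I lists lie to the right of 0 in both classes, and the alternative activation list has a median below 0 in both.

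Inflammatory mediators of the C1q high members lay on both sides of their matched cells. Ccl8, a ligand of several monocyte and T cell chemokine receptors, stood at 1079 CPM against 17.8, a log2 ratio of 5.92 [5.59 to 6.27]. It was found in 25 of 70 members, with 32.2% of its UMIs in 1 cell, and in 21 of 350 matched cells. Ccl5, a T cell attractant, stood at 1127 CPM against 61.6, a ratio of 4.19 [4.00 to 4.39], in 39 members. Cxcl10, which acts on the same receptor as Cxcl9, stood closer, with a ratio of 0.52 [0.42 to 0.62]. The neutrophil attractant Cxcl2 was lower, at −0.92 [−0.97 to −0.88], and so were the monocyte attractants Ccl7 at −1.30 and Ccl2 at −0.81. Of 14 chemokine genes other than the Cxcr3 ligands, 4 were past 1.5-fold higher and 8 past 1.5-fold lower. Among cytokines and effectors Il18bp, a secreted inhibitor of interleukin 18, had the highest ratio, at 2.73 [2.19 to 3.29], and Il6 the lowest, at −1.93 on 3 and 57 UMIs. Il1b gave 0.95 and Tnf −0.58.

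Some genes of lymphocyte contact and the serpin Serpina3g were higher in these cells. Of 13 checkpoint and costimulatory genes described, 5 were past 1.5-fold higher and 1, Tnfsf9, past 1.5-fold lower, with a median of 0.29. Slamf8 gave a ratio of 3.27 and Cd40 3.30. Cd274, which encodes PD-L1, the ligand of PD1, gave 2.35 [1.74 to 2.96]. It was found in 42.9% of C1q high members and 9.14% of their matched cells, and it is named for its link to the genotype. Over both classes it stood at 65.5 CPM in KO_MI members against 14.5, at 59.0 against 21.4 in Het_MI and at 20.1 against 3.90 in KO_sham, too low in KO_sham to be tested. Serpina3g had the highest ratio of all genes named by the rule, at 6.68 [5.78 to 7.77], and was found in 37 of 70 members and 7 of 350 matched cells.

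Resident and repair-type genes were lower in the C1q high members. Of 14 resident macrophage genes 9 were past 1.5-fold lower and 0 higher, with a median of −0.85. The mannose receptor Mrc1 stood at −0.98 [−1.13 to −0.84], the transcription factor Maf at −0.95, the coagulation factor F13a1 at −1.01 and Cd163 at −2.03. Lyve1 and Timd4, markers of long-lived resident macrophages, gave −0.09 [−0.45 to 0.25] and 0.10 [−0.46 to 0.62]. For Lyve1 1 member alone held 37 UMIs, and the next highest held 15. At least 3 Lyve1 UMIs were found in 7.14% of members and 11.7% of matched cells, and at least 3 Timd4 UMIs in 4.29% and 5.71%. Of 10 genes of alternative activation 7 were past 1.5-fold lower, with the scavenger receptor Marco lowest at −3.38 on 21 and 1090 UMIs. Marco was found in 7.14% of members and 9.71% of matched cells, and 23.9% of the matched UMIs came from 1 cell. The lipid-associated list had a median of −0.05, and Spp1, the matrix protein osteopontin, gave −0.05 [−0.14 to 0.03].

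C1q high members held less RNA of dividing cells. Of 12 proliferation genes 10 were past 1.5-fold lower, with a median of −2.17. The proliferation antigen Mki67 stood at 25.9 CPM in members and 124 in matched cells, a ratio of −2.26 [−2.93 to −1.66]. Cells with at least 3 Mki67 UMIs were 2 of 70 members (2.86% [0.348 to 9.94]) and 63 of 350 matched cells (18.0% [14.1 to 22.4]). The mitotic cyclin Ccnb1 gave −4.17 on 1 and 90 UMIs. By the same count of at least 3 UMIs, Mrc1 was found in 42.9% of members and 82.0% of matched cells, H2-Ab1 in 57.1% and 16.3%, and Gbp2 in 60.0% and 6.86%. The plot of cells past 3 UMIs shows these genes in both classes.

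**Figure D4:**
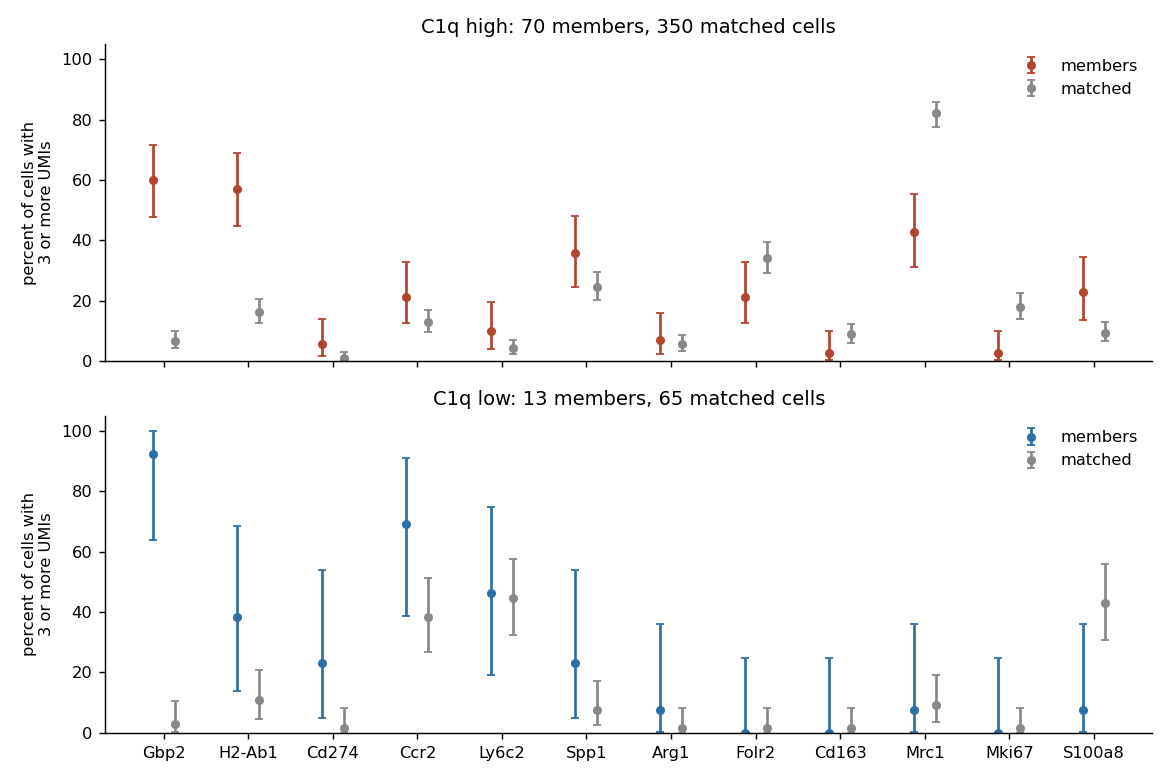
Percent of cells with at least 3 UMIs of each gene in members (coloured) and matched cells (grey) of KO_MI, with exact 95% intervals for counting error. In C1q high cells Gbp2 and H2-Ab1 are more frequent in members and Mrc1 and Mki67 less frequent, while the intervals of the 13 C1q low members are wide.

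Markers of monocytes and neutrophils were also higher in the C1q high members. Of 9 classical monocyte genes 6 were past 1.5-fold higher, led by coagulation factor F10 at 1.59, with the monocyte gene Plac8 at 0.88 and the chemokine receptor Ccr2 at 0.65. Of 9 non-classical monocyte genes 5 were. Of 9 neutrophil genes 6 were, with S100a9 at 1.16 and S100a8 at 1.15, and their summed level was 6804 CPM in members and 3036 in matched cells. The neutrophil genes were unevenly spread, since 11 of the 70 members held at least 100 UMIs of S100a8, S100a9, Retnlg and Cxcr2 per 10000. Without such cells on either side the medians of the GTPase list and of the resident macrophage list were 1.95 and −0.73, and the proliferation list had −2.16 with 8 of 12 genes past 1.5-fold lower. The other lineages were low. Summed levels of T cell, NK cell and B cell lists were 37.2, 2.25 and 100.3 CPM in the C1q high members against 51.2, 49.0 and 125 CPM. The dendritic list gave 240 against 90.3 CPM.

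The 13 C1q low members shared many of the interferon genes and differed in others. Here 14.9% of 3081 genes were past 1.5-fold higher than in 65 matched cells and 27.8% past 1.5-fold lower, with a median log2 ratio of −0.10. Gbp2 stood at 1762 CPM against 53.6, a ratio of 5.04 [4.50 to 5.62], and was found in 12 of 13 members. All 4 GTPase genes described were past 1.5-fold higher, as were 5 of 6 class II genes, 9 of 15 class I genes and 11 of 12 type I interferon genes. Ccl5 gave the highest ratio, 8.70 [7.14 to 10.99], from 7 cells with 52.0% of its UMIs in 1. Slamf7 gave 6.49 in 10 of 13 members and Serpina3g 5.93 in 9. Isg15 gave 3.21 [2.79 to 3.64] and Oasl1 5.04, though 66.7% of the Oasl1 UMIs came from 1 cell. Cxcl10 gave 3.59, with 93.5% of its UMIs in 1 cell, and 0.12 without the highest cell on each side. Ccr7, a gene of migratory dendritic cells, had 50 UMIs, all in 1 cell.

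Their monocyte genes stood mostly level with matched cells or lower. Ly6c2 gave −0.16 [−0.51 to 0.17], Plac8 0.02 and Ccr2 0.92 [0.47 to 1.35]. All 9 non-classical monocyte genes described were past 1.5-fold lower, with a median of −4.04, as were 10 of 13 lipid-associated genes. Of 7 neutrophil genes 6 were lower, with S100a8 at 12 UMIs in members and 4998 in matched cells. Neutrophil-like cells were 11 of the 65 matched cells and 0 of the members. Without such cells the non-classical median was −4.01, and the neutrophil list had 1 of 2 genes past 1.5-fold lower. With classes divided at 50 C1q UMIs per 10000 the non-classical median was −1.19, with all 9 genes still past 1.5-fold lower. The neutrophil list then had 3 of 7 genes past 1.5-fold lower and 1 higher, with a median of −0.47. With 13 cells in 1 library, 1 cell can set a gene's ratio.

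C1q high and C1q low members of KO_MI differed in neutrophil, macrophage and monocyte genes. Of 4005 genes 27.6% were past 1.5-fold higher in C1q high members and 14.3% past 1.5-fold higher in C1q low members, outside the C1q genes themselves. Of the genes named here the neutrophil gene S100a9 was higher in C1q high members by most, at 8.51 on the log2 scale, with 2693 UMIs against 1. It was found in 27 C1q high members, with 26.8% of its UMIs in 1 cell. S100a8 gave 4.77. Of 6 neutrophil genes described 5 were past 1.5-fold higher in C1q high members, with a median of 4.025. Neutrophil-like cells were 11 of the C1q high members and 0 of the C1q low ones, and this comparison was not repeated without them. In the matched cells the neutrophil list ran the other way, with 3036 CPM in C1q high and 20340 CPM in C1q low cells. All 12 resident macrophage genes described were past 1.5-fold higher in C1q high members, and 5 of 7 classical monocyte genes in C1q low members. The B cell and macrophage receptor gene Cd72 was higher in C1q high members by 4.86, the platelet factor Pf4 by 4.23 and F13a1 by 4.16 on the log2 scale. Ccl8 had 958 UMIs against 0, a log2 ratio of 5.43 when 3 UMIs are taken for the 0. Ly6c2 stood at −3.28 [−3.76 to −2.81], the lectin Clec4e at −2.69, the membrane protein Ms4a4c at −2.58 and Plac8 at −2.48, all higher in C1q low members. The medians of the lists of interferon gamma targets lay nearer to the median of all genes, 0.11. The GTPase list had a median of −0.08 over 12 genes, MHC class II −0.11 over 6 and class I −0.19 over 18. Single GTPase genes differed both ways. Of the 12, 3 were past 1.5-fold higher in C1q high members, led by Iigp1 on 113 and 1 UMIs, and 4 in C1q low members. Type I interferon genes had a median of −0.70, with 10 of 19 past 1.5-fold higher in C1q low members.

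Within KO_MI the companion genes were compared between members with few and many Cxcl9 UMIs. The members were divided into 17 cells with 2 to 3 Cxcl9 UMIs, 17 with 4 to 9, 27 with 10 to 29 and 22 with 30 or more, whose median depths rose from 8519 to 15050 UMIs. Gbp2 stood at 347, 519, 943 and 1145 CPM over these strata in order. Serpina3g stood at 99.9, 143, 170 and 480 CPM. Ly6a stood at 28.5, 227, 196 and 366 CPM and Cfb at 85.6, 324, 289 and 311. H2-Ab1 was highest in the third stratum, at 614, 1847, 2476 and 1257 CPM, and Cxcl10 likewise at 899, 707, 1604 and 970. S100a8 ran the other way, with 6031, 4531, 407 and 1046 CPM. Over the whole neutrophil list the strata held 14660, 12560, 940 and 2245 CPM, most of it from 1 cell in each of the first 3 strata. Its part in the companion levels was not tested. Without the leading cell of each stratum the neutrophil list stood at 5809, 2529, 126 and 1397 CPM and S100a8 at 2219, 994, 63.2 and 632. In the same way Gbp2 stood at 215, 372, 818 and 1001 CPM, Serpina3g at 64.9, 64.8, 110 and 391, and Cfb at 59.1, 158, 241 and 252. Single cells thus moved several of these values by over 1.5 times. These are sums over cells of 1 library, given as a description.

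**Figure D5:**
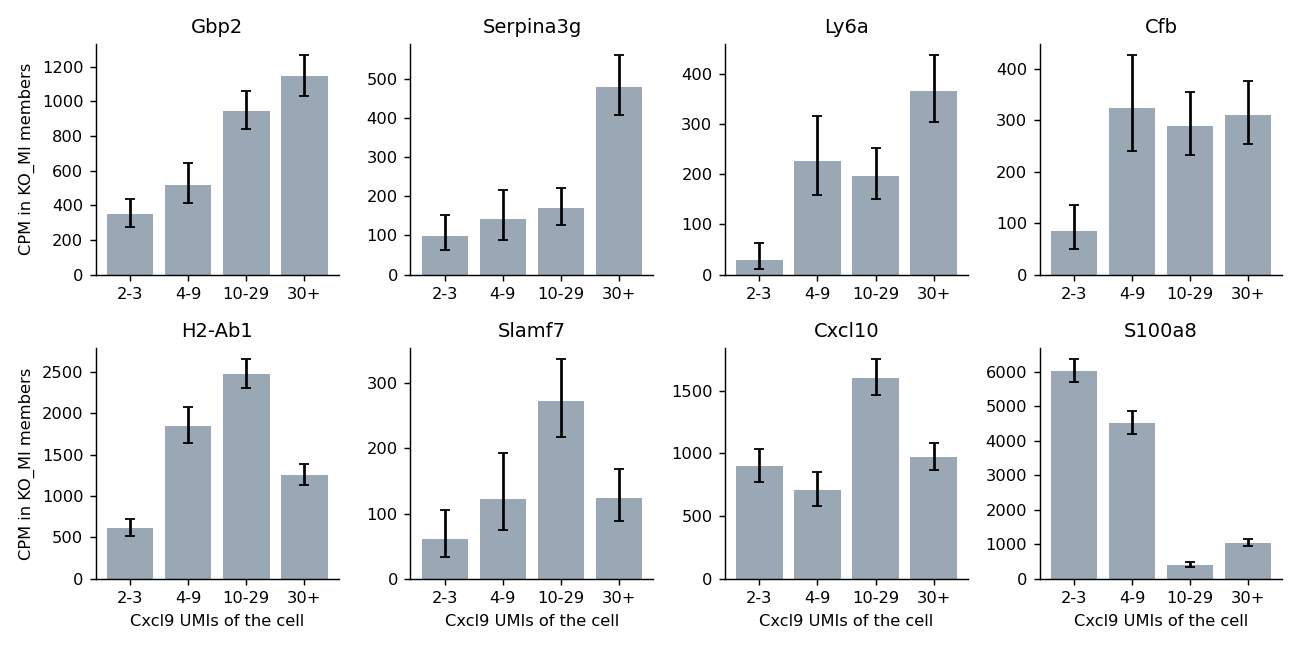
CPM of 8 genes in KO_MI members grouped by the Cxcl9 UMIs of the cell, with exact 95% intervals for counting error. Gbp2 and Serpina3g are highest in cells with 30 or more Cxcl9 UMIs, H2-Ab1 peaks at 10 to 29, and S100a8 is highest at 2 to 3.

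The members did not hold all of the Cxcl9 RNA. Of the 5033 Cxcl9 UMIs in KO_MI cells past the quality limits 54.9% lay in members, against 74.0% of 369 in Het_MI. A further 90 cells of the series, 74 of them in KO_MI, held at least 2 Cxcl9 UMIs but failed another condition. In KO_MI 58 of them failed the lymphocyte limit, 11 the myeloid minimum and 7 the dendritic limit, and a cell could fail several. The lymphocyte limit was exceeded in like shares of cells with and without Cxcl9. Of KO_MI cells that met the myeloid and dendritic conditions with at least 2 Cxcl9 UMIs, 57 of 140 (40.7% [32.5 to 49.3]) exceeded it, against 278 of 700 depth-matched cells with no Cxcl9 (39.7% [36.1 to 43.4]). Those cells are not described further.

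Ifng RNA, which encodes interferon gamma, was present in T and NK cells of all 4 libraries. It was counted in 11.5% [8.75 to 14.8], 15.8% [11.5 to 21.1], 10.6% [7.14 to 14.9] and 15.0% [11.7 to 18.7] of these cells in Het_sham, KO_sham, Het_MI and KO_MI, at median depths of 7794, 5338, 5281 and 5362 UMIs. The 4 intervals overlap. Among gated cells 0.0754% to 0.357% held an Ifng UMI. Cxcr3 was counted in 6.96%, 11.2%, 10.2% and 10.8% of T and NK cells in the same order.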

How the data were processed

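Single-cell RNA libraries were made with the 10x Genomics 3' v3 kit from sorted CD45-positive cells, per the labels' protocols. The deposited matrices hold raw UMI counts for each barcode, per the file headers, which name cellranger 4.0.0. Cell Ranger 6.1.1, Seurat 4 and the builds mm10 and GRCm38 are named per the submitters' processing notes. How barcodes were called as cells is not stated in the labels.

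Cells with at least 500 UMIs, at least 200 genes and at most 10% mitochondrial UMIs were kept (5376, 6407, 5074 and 7104 in Het_sham, KO_sham, Het_MI and KO_MI). Doublets were kept in the main values. The automatic threshold of Scrublet (scanpy 1.11.5) marked 148 cells, 139 of them in Het_sham, and was not used. The highest scores, at 0.8% per 1000 barcodes, held 4 members, and 18 members held at least 3 UMIs of another lineage at 10% or more of its usual level (12 neutrophil, 4 T cell, 2 stromal). Both were removed as alternatives. Shares carry exact Clopper-Pearson intervals and ratios exact conditional binomial ones. PCR and sampling of cells add error that these do not cover. Bounds against a group of cells with no counts use 3 counts over that group.

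The sums of members and matched cells were tested with edgeR 4.0.16 (R 4.3.3), with TMM, filterByExpr and the library as a block, which holds because both sums come from 1 library. The other library-level tests of the design, within each C1q class, between classes and between genotypes, could not be fitted, since only KO_MI had enough members. Counts were simulated from these libraries for 5422 genes, of which 200 were changed by the same fold in every library. Among changed genes that passed the count filter, the test recovered 33.9% of 56 at 2-fold, 93.3% of 60 at 4-fold and 100% of 63 at 8-fold. There were 13 false calls among 151. No single cell was made to lead a simulated sum, as 1 did in KO_sham. Alternatives used DESeq2 1.42.0, other filters, references and thresholds. Inside KO_MI a gene was described with at least 30 UMIs.

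The members, the markers and the 29 gene lists were chosen with earlier results of these data known. Cxcl11, Gbp11, Mx1, Mx2, Serpina3h and Ahsp of these lists were not found under these names. Named were the markers, the 15 genes with the largest changes past the test, and from each list its 4 most abundant genes with the extremes of its ratios. Genes named beyond that, to complete a count or a comparison, were chosen after their values were seen. Some genes that the rule names are not reported here. Genes with near-identical copies (Gbp, Serpina3, Ly6, H2 and Ifi200 families) may share reads. Gene positions are from the GENCODE annotation of GRCm38 and promoters from RefSeq.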

Additional observations from a re-analysis of the deposited data

How the results depend on the processing

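The ratio of member shares of KO_MI over Het_MI stayed above 7 under thinning, other Cxcl9 thresholds, doublet and lineage filters, a denominator of all kept cells, a mitochondrial limit of 5%, and without neutrophil-like or further dendritic cells. Among cells with Xist and no Y-linked RNA it was 3.05 with 3 cells taken for the 0 members of Het_MI, and among C1q low cells it was 1.91. No value could be had for Het_MI over Het_sham among Xist cells, or for KO_sham over Het_sham among C1q low cells, since a side had no members. Of the 38 calls against matched cells, the alternatives gave 59 with DESeq2, 185 with no filter on low counts, 248 with every cell lacking Cxcl9 as reference, 67 without further dendritic cells and 44 without the largest member of KO_sham, 43 of them higher. Leaving out a library gave 31 to 41. With no replicate block there were 0 calls by edgeR and 298 genes at an unadjusted p under 0.05. The 38 genes kept a positive direction wherever they were tested, and 133 values of single genes lost the threshold while 494 did not. Within KO_MI, 2 ratios of C1q low cells reversed. Cxcl2 gave −0.24 at a C1q threshold of 50, against 0.42, and Apoe 0.0909 with every cell lacking Cxcl9 as reference, against −0.62. The median of the C1q low resident macrophage list was −1.34, 0.54 against every cell lacking Cxcl9 and −0.01 with droplets of another lineage removed. The C1q low neutrophil median was −0.47 at a C1q threshold of 50, against −5.53. The cause was not tested. Chosen after seeing the data were the settings inside KO_MI, the division of shares by C1q class, the use of all 4 libraries, the removal of neutrophil-like cells, and, for the calls, the removal of further dendritic cells or of the largest member. A minimum of 10 cells per sum left 1 library and could not be fitted, and alternatives of the other planned tests were not run. With 2 to 7 members in 3 libraries, ratios among those libraries are limited by the number of cells.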
